A study of Mus musculus with 12 samples.

Results

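The genes of hepatic stellate cells and of the collagen scaffold of the liver were followed in liver RNA from 12 mice. The set held 10 genes, chosen by symbol among the 23849 gene symbols of the expression table: Col1a1, Col1a2, Col3a1, Col4a1, Col4a2, Col14a1, Dcn, Lrat, Timp1 and Tgfb1. All 10 were found, each on a line of its own, and 8 of them reached a mean of 1 FPKM over the 12 livers, the minimum for the tests across genes. Col1a1, with a mean of 0.99 FPKM, lay just under that minimum, and Timp1 had a mean of 0.43 FPKM. FPKM divides the reads of a gene by the length of its transcript and by the depth of the library, so levels can be set side by side between genes.

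All animals were male mice of C57BL/6J background, described as 8 weeks old, and all were fed a high-fat diet (HFD), so no group on a normal diet was compared. They were given vehicle or Policaptil Gel Retard, a gel-forming fiber complex that the sample labels call Libramed, by oral gavage for 2 weeks, the vehicle being drinking water. Livers were collected at zeitgeber time (ZT) 0, when the lights go on, or at ZT12, when they go off and mice start to eat, with 3 mice in each of 4 groups (vehicle ZT0, vehicle ZT12, Policaptil ZT0 and Policaptil ZT12). By the methods, gavage was given daily shortly before lights off, so the time since the last dose also differed between ZT0 and ZT12. Time of day and time since gavage cannot be told apart here. The labels call the mice of a group biological replicates, and whole liver was sampled, so every value below mixes all cell types of the organ.

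Stellate cells lie between the sinusoidal endothelium and the hepatocytes. In the healthy liver they store vitamin A as retinyl esters, which lecithin retinol acyltransferase (Lrat) makes, and during injury they turn into myofibroblasts that deposit matrix. Type I collagen, built from the Col1a1 and Col1a2 chains, and type III collagen (Col3a1) form the fibrils of scar tissue. Transforming growth factor beta 1 (Tgfb1) drives their synthesis, and the inhibitor Timp1 slows their breakdown by matrix metalloproteinases. Portal fibroblasts and vascular smooth muscle also make fibrillar collagens, endothelial cells contribute to type IV collagen, and macrophages are a source of Tgfb1. In whole-liver RNA, fewer cells of a type and less RNA per cell cannot be told apart.

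The main difference was between times of day. Over both treatments, 4 of the 8 genes tested were lower at ZT12 than at ZT0: Col3a1, Col4a1, Col14a1 and Dcn, by 0.51 to 0.60 on the log2 scale (FPKM + 1) and with adjusted p under 0.05 by limma. By the same rule 13.8% of all 9806 genes tested were lower at ZT12, and 15.9% were higher. With p under 0.05 there were 5 of the 8, Col4a2 being the other, against 19.3% of all genes. None of the 8 was higher, and the log2 fold change was below 0 in 8 of 8, with a median of -0.42 against 0.01 over all genes. Without the 2 livers described below as standing apart, 2 of the 8 were lower, Col3a1 (-0.39, adjusted p 0.0418) and Col14a1 (-0.42, adjusted p 0.00806), while Col4a1 (-0.49, adjusted p 0.0624) and Dcn (-0.42, adjusted p 0.147) no longer passed, and 11.2% of all genes were lower. No gene of the set passed the test for Policaptil Gel Retard against vehicle at either time.

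The tissue and the livers themselves were checked first. Hepatocyte markers dominated every library, with a summed level of 37545 to 55612 FPKM over 8 genes, whereas albumin (Alb) was listed at 0 in all 12 livers, so that a 0 in this table need not mean that a gene is silent. Each of the 24 stellate cell markers was above 0 in at least 1 liver, with sums of 115.3 to 186.1 FPKM. The relative depth of the libraries, judged from genes near the detection limit, differed by up to 1.78 times. Reads per library were not used here, so no counting error can be given, and low values such as those of Timp1 may rest on few reads.

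A pair of livers stood apart in ways that touch these genes. Policaptil ZT0 replicate 2 had the highest level of the 12 livers for 5 of the 10 genes (Col1a1, Col1a2, Col3a1, Col14a1 and Dcn). The same liver was highest for 5 of 8 vascular smooth muscle markers, 7 of 15 portal fibroblast and mesothelial markers and 10 of 24 stellate cell markers, and for none of 12 endothelial and none of 11 macrophage markers. Of the endothelial markers, it still ranked 2 from the top for Stab1, Stab2, Kdr, Eng and Flt4 and 3 for Cdh5 and Fcgr2b. Pecam1 and Oit3 ranked 4 there, Clec4g 5, Tie1 8 and Lyve1 11. Among macrophage markers this liver ranked 2 for Adgre1 and 5 to 9 for the others. Its smooth muscle actin (Acta2) was at 3.33 FPKM against 0.13 to 1.33 in the other livers, its elastin (Eln) at 2.70 against 0.15 to 0.88, and its dermatopontin (Dpt) at 4.15 against 0.80 to 1.74. Policaptil ZT12 replicate 3 had the lowest level of the 12 livers for 6 of the 10 genes (Col1a1, Col3a1, Col4a1, Col14a1, Dcn and Tgfb1). It also carried skeletal muscle transcripts, with Acta1 at 16.4 FPKM, Ckm at 10.4 and Tnnt3 at 10.3, all listed at 0 in the other livers. The share of all genes that were highest or lowest in these livers was not counted, so the counts above have no background beside them. Policaptil ZT0 replicate 2 had the most genes above 0, 15264 against 14581 to 14862 in the other livers. The counts for the set and for the lists of other genes are given below with and without both livers. The part of the muscle and portal cells in the results was not tested.

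**Figure D1:**
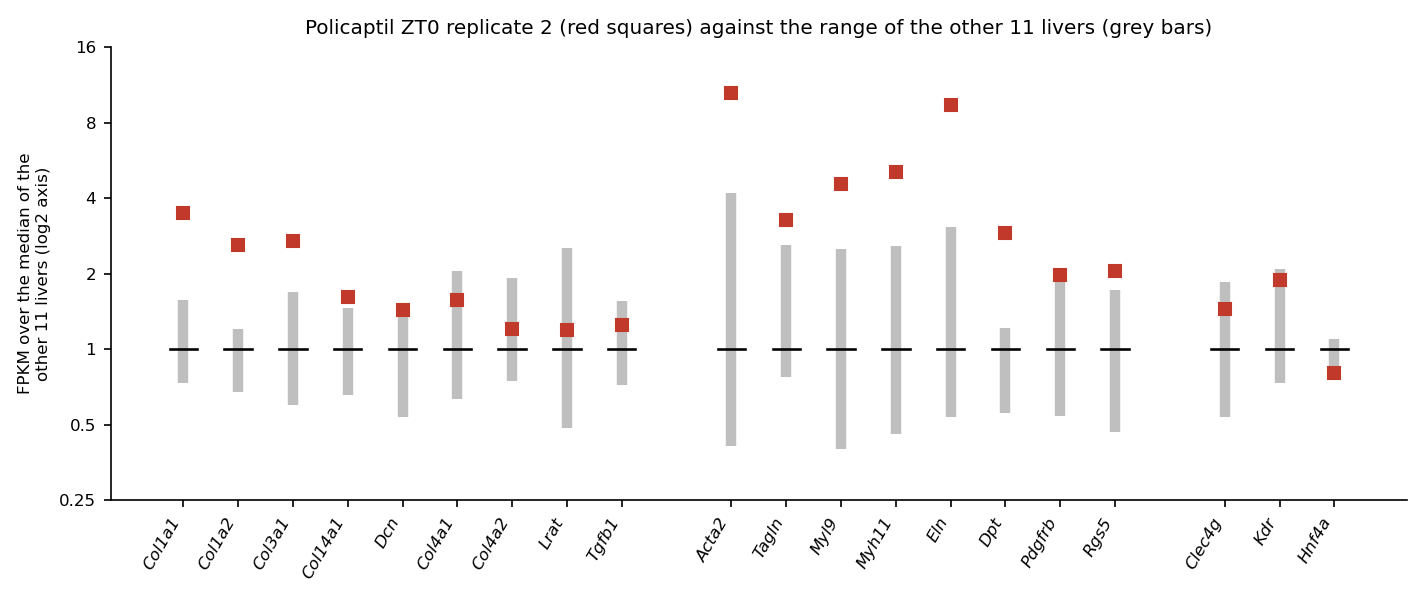
Level of each gene in Policaptil ZT0 replicate 2 (red squares), divided by the median of the other 11 livers (black lines at 1, log2 axis), with the range of those livers as grey bars. The left block holds genes of the set and the right block endothelial and hepatocyte genes. The middle block holds smooth muscle, portal and stellate markers picked among those highest in this liver. Other markers of these lists, such as Mylk, Tpm2, Hgf and Steap4, were not highest in it and are not drawn. Col1a1, Col1a2 and Col3a1 lie above the grey bars, as do Acta2, Myl9, Myh11, Eln and Dpt, whereas Col4a1, Col4a2, Lrat and Tgfb1 lie within them.

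The fibrillar collagens were expressed at a low level. Col1a1 encodes the alpha 1 chain of type I collagen and lies on chromosome 11 (94936224 to 94953042, mm10, plus strand). It was at 0.79, 1.24 and 1.12 FPKM in the vehicle ZT0 livers and at 0.72, 0.63 and 0.92 in the vehicle ZT12 livers. With Policaptil Gel Retard it was at 0.60, 2.76 and 0.94 FPKM at ZT0 and at 0.94, 0.68 and 0.58 at ZT12. A single liver, Policaptil ZT0 replicate 2, was more than 2 times as high as any other, and the groups overlapped in both treatments. Fitted with no minimum FPKM, Col1a1 had a log2 fold change at ZT12 against ZT0 of -0.31 ± 0.18 (SE) over both treatments, with an adjusted p of 0.286, and of -0.13 without that liver.

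Col1a2, the alpha 2 chain of the same trimer (chromosome 6, 4504814 to 4541544, plus strand), was at 0.99, 1.11 and 1.20 FPKM in vehicle ZT0 and at 1.00, 0.74 and 1.07 in vehicle ZT12. In the treated mice it was at 1.11, 2.84 and 1.31 FPKM at ZT0 and at 1.22, 0.99 and 1.09 at ZT12. Again only Policaptil ZT0 replicate 2 left a narrow range, and the other 11 livers lay between 0.74 and 1.31 FPKM. Over time the log2 fold change was -0.23 ± 0.13 (SE) with both treatments, an adjusted p of 0.206. Without that liver it was -0.10.

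Type III collagen showed a clearer difference. Col3a1 (chromosome 1, 45311538 to 45349706, plus strand) was at 2.36, 2.52 and 3.19 FPKM in vehicle ZT0 and at 2.09, 1.73 and 2.45 in vehicle ZT12. Treated livers held 2.89, 6.36 and 3.99 FPKM at ZT0 and at 2.28, 1.57 and 1.41 at ZT12. All 3 treated livers at ZT12 lay below all 3 at ZT0, while the vehicle groups overlapped by 1 liver. Its mean was 3.55 ± 1.49 FPKM (SD, n = 6) at ZT0 and 1.92 ± 0.41 FPKM (SD, n = 6) at ZT12. The log2 fold change was -0.60 ± 0.17 (SE), with an adjusted p of 0.0201, and an exact permutation test within treatments, two-sided over 400 arrangements, gave p = 0.01. The adjusted p stayed between 0.0162 and 0.0471 when each of the 12 livers was left out in turn, and the log2 fold change was -0.45 without Policaptil ZT0 replicate 2.

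Sequences are shown for pairs of genes with a high Pearson r over the 12 livers, starting with Col3a1 and Col1a2. For this pair r was 0.85 on log2(FPKM + 1), but 0.65 without Policaptil ZT0 replicate 2 and 0.32 among the 6 ZT12 livers. The sequences of this pair are the stretches before the RefSeq start sites, on the plus strand of GRCm38.p6 (mm10). They lie at chr1:45311288-45311537 and chr6:4505370-4505492, the second limited to bases outside annotated exons and untranslated regions. Capitals mark matches to the motifs searched on both strands. A TATA-like string was searched as TATAAA. For the pentamer that factor NF-Y recognises the search string was CCAAT. Sites of the Sp1 kind were searched as GGGCGG. For the E-box of circadian regulators the search string was CACGTG. No matches overlap in the stretches shown.
Col3a1: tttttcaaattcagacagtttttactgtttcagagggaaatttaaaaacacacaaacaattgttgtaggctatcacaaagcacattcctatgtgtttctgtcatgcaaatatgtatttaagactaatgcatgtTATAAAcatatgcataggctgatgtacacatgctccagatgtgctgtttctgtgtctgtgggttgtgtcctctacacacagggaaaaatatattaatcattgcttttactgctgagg
Col1a2: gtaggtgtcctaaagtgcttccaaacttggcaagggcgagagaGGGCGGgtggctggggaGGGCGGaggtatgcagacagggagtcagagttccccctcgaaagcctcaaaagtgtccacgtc

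The windows differed in base composition. In the 250 bases before the start, G and C made up 35.2% for Col3a1 and 62% for Col1a2, against a median of 52% over 27025 promoter windows. Of the 10 genes, 7 had a window in the RefSeq table (Col1a1, Col14a1 and Dcn did not). TATAAA was in the window of Col3a1 alone among the 7, at 117 to 112 bases before the start, and in 13% of all windows. The NF-Y pentamer was in 5 of the 7 (Col1a2, Col4a1, Col4a2, Lrat and Timp1) and in 34.5% of all windows, and the Sp1-type string was in 5 of the 7 (Col1a2, Col4a2, Lrat, Timp1 and Tgfb1) and in 32.9%. The match in the 22 bases that Col4a1 and Col4a2 share, shown further on, lies after both starts and is not counted here. GGGCGG is made of G and C alone, and its 5 windows held from 54.4% (Timp1) to 75.2% (Tgfb1) of these bases. That of Col4a1, without the string, held 74.4%. The share among windows of like composition was not counted. The E-box, which the clock proteins CLOCK and BMAL1 bind, was in none of the 7 windows and in 6.05% of all, which says only that these letters are not in this stretch.

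Col14a1 and decorin sit on the surface of collagen fibrils. Col14a1 encodes type XIV collagen, which binds fibrils without forming its own, and lies on chromosome 15 (55307750 to 55520803, plus strand). It was at 3.02, 2.54 and 3.67 FPKM in vehicle ZT0 and at 2.14, 2.00 and 2.52 in vehicle ZT12. In mice given Policaptil Gel Retard it was at 3.39, 4.07 and 3.41 FPKM at ZT0 and at 1.89, 2.09 and 1.66 at ZT12. Every ZT12 liver lay below every ZT0 liver, also across treatments, though the closest pair differed only as 2.52 and 2.54 FPKM. Of all genes tested, 5.84% were lower in all 6 ZT12 livers than in all 6 ZT0 livers, and 7.89% were lower without overlap within each treatment. The mean was 3.35 ± 0.53 FPKM (SD, n = 6) at ZT0 and 2.05 ± 0.29 FPKM (SD, n = 6) at ZT12. This gave a log2 fold change of -0.51 ± 0.09 (SE) with an adjusted p of 0.00162, and the exact permutation p was 0.005, the smallest that 400 arrangements can give. The adjusted p was at most 0.00517 with any 1 liver left out.

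Dcn encodes decorin, a small proteoglycan that binds collagen fibrils and TGF-beta, on chromosome 10 (97479609 to 97518143, plus strand). It was by far the most abundant gene of the set, at 49.2, 25.8 and 50.5 FPKM in vehicle ZT0 and at 24.5, 25.4 and 39.8 in vehicle ZT12. The Policaptil groups were at 40.8, 52.1 and 47.2 FPKM at ZT0 and at 36.2, 30.6 and 19.4 at ZT12. The treated groups did not overlap, and in the vehicle groups replicate 2 of ZT0 lay within the range of ZT12. The mean was 44.3 ± 9.87 FPKM (SD, n = 6) at ZT0 and 29.3 ± 7.70 FPKM (SD, n = 6) at ZT12, a log2 fold change of -0.58 ± 0.20 (SE) with an adjusted p of 0.0422. This call was close to its threshold, since only 3 of the 12 fits that leave out 1 liver kept an adjusted p under 0.05 (range 0.00618 to 0.0894). It was also lost with the replicate number as a block (adjusted p 0.0616) and with no minimum FPKM (adjusted p 0.0776).

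**Figure D2:**
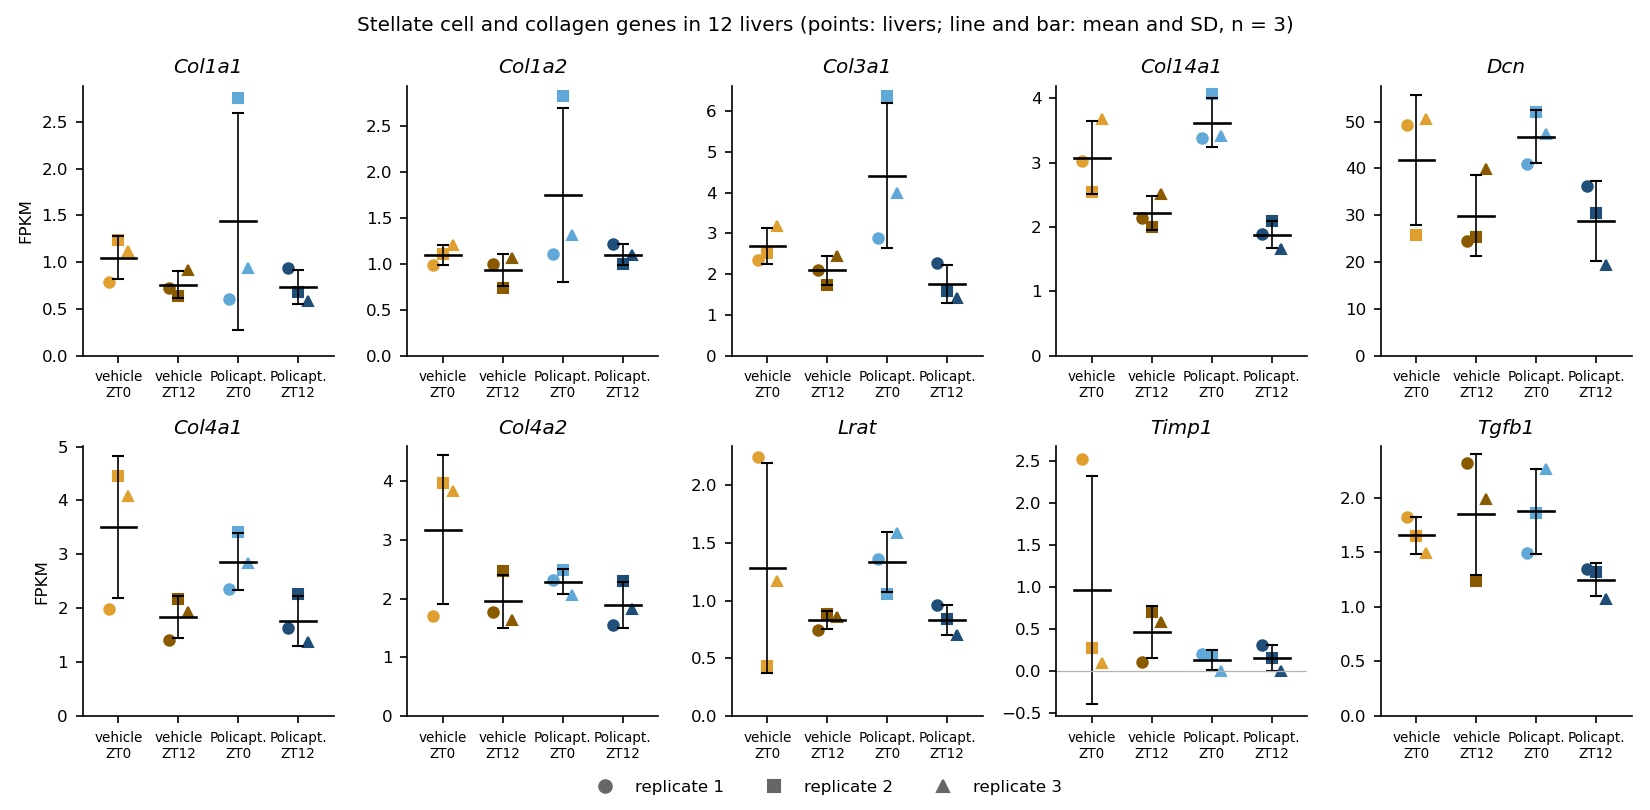
FPKM of the 10 genes in each liver, by group on the x axis, with the replicate number as the shape of the point, the mean as a line and the SD as a bar (3 livers a group). All Col14a1 points at ZT12 lie below those at ZT0, the square of Policaptil ZT0 is highest for Col1a1, Col1a2 and Col3a1, and a single vehicle ZT0 liver is high for Timp1.

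Type IV collagen forms the network of basement membranes and is made by endothelial cells as well as by stellate cells. Its main chains, Col4a1 and Col4a2, lie head to head on chromosome 8, at 11198423 to 11312826 on the minus strand and at 11312805 to 11449287 on the plus strand. Their annotated first exons share 22 bases, shown on the plus strand of GRCm38.p6 at chr8:11312805-11312826 since both genes start there, with capitals for GGGCGG.
Col4a1 and Col4a2: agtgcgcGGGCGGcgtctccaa

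Col4a1 was at 1.99, 4.45 and 4.07 FPKM in vehicle ZT0 and at 1.42, 2.17 and 1.93 in vehicle ZT12. With Policaptil Gel Retard it was at 2.35, 3.41 and 2.83 FPKM at ZT0 and at 1.64, 2.27 and 1.37 at ZT12. The treated groups did not overlap, and vehicle ZT0 replicate 1 was the only liver of its treatment at ZT0 within the range of ZT12. The mean was 3.18 ± 0.97 FPKM (SD, n = 6) at ZT0 and 1.80 ± 0.38 FPKM (SD, n = 6) at ZT12. Col4a1 thus had a log2 fold change of -0.56 ± 0.15 (SE) with an adjusted p of 0.0134, and the adjusted p stayed between 0.00231 and 0.0332 with each liver left out in turn.

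Col4a2 followed with smaller differences, at 1.71, 3.98 and 3.84 FPKM in vehicle ZT0 and at 1.77, 2.48 and 1.63 in vehicle ZT12. In the treated mice it was at 2.32, 2.49 and 2.06 FPKM at ZT0 and at 1.55, 2.31 and 1.82 at ZT12. Both treatments had overlapping groups. Its log2 fold change of -0.32 ± 0.15 (SE) had an adjusted p of 0.117, which does not pass, and the exact permutation p was 0.095. Without vehicle ZT0 replicate 1, in which both chains were low, the log2 fold change was -0.44 with an adjusted p of 0.0208. This was the only 1 of 12 fits leaving out 1 liver that passed, and the adjusted p reached 0.24. The ratio of Col4a1 to Col4a2 had a median of 1.06 over the livers, with a range of 0.75 to 1.38.

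Lrat, the enzyme that esterifies retinol for storage (chromosome 3, 82892579 to 82903973, minus strand), varied most between mice in the vehicle ZT0 group. It was at 2.24, 0.43 and 1.17 FPKM there and at 0.75, 0.89 and 0.86 in vehicle ZT12. Treated livers held 1.36, 1.06 and 1.58 FPKM at ZT0 and at 0.96, 0.84 and 0.70 at ZT12. The highest and the lowest of the 12 livers were thus both vehicle livers at ZT0, while the treated groups did not overlap. Over both treatments the log2 fold change was -0.29 ± 0.15 (SE) with an adjusted p of 0.179. Leaving out vehicle ZT0 replicate 2, the lowest liver, gave -0.43 with an adjusted p of 0.0118. Of the 12 fits that leave out 1 liver, only this 1 passed, and the adjusted p reached 0.338.

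Tgfb1, the growth factor that activates stellate cells (chromosome 7, 25687002 to 25705077, plus strand), was at 1.83, 1.65 and 1.49 FPKM in vehicle ZT0 and at 2.32, 1.24 and 1.99 in vehicle ZT12. In mice given Policaptil Gel Retard it was at 1.49, 1.86 and 2.27 FPKM at ZT0 and at 1.34, 1.32 and 1.07 at ZT12. In the treated mice all 3 livers at ZT12 were below those at ZT0, and in the vehicle mice the ZT12 group held both the highest and a low value. The log2 fold change was 0.08 ± 0.16 (SE) with vehicle and -0.35 ± 0.12 (SE) with Policaptil Gel Retard, with adjusted p of 0.775 and 0.107. Over both treatments it was -0.13 ± 0.12 (SE) with an adjusted p of 0.437.

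Timp1, an inhibitor of matrix metalloproteinases (chromosome X, 20870166 to 20874735, plus strand), was near the detection limit. It was at 2.53, 0.27 and 0.10 FPKM in vehicle ZT0 and at 0.11, 0.70 and 0.58 in vehicle ZT12. The Policaptil groups were at 0.20, 0.19 and 0 FPKM at ZT0 and at 0.31, 0.15 and 0 at ZT12. One vehicle ZT0 liver, replicate 1, exceeded the rest, and 1 liver in each treated group was listed at 0. The gene lies within Syn1, which is read on the opposite strand, and the sources differ on whether the libraries kept the strand. Fitted with no minimum FPKM, its log2 fold change over time was -0.11 ± 0.25 (SE), with an adjusted p of 0.818, and it turned to 0.14 without that liver.

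The comparison of ZT12 with ZT0 was then taken within each treatment. In vehicle mice none of the 8 genes had an adjusted p under 0.05 by limma, a rule by which 4.78% of all genes were lower at ZT12, and a version of Cyber-T called 1 of them. With p under 0.05 there were 2 of 8, Col4a1 (log2 fold change -0.63, adjusted p 0.145) and Col14a1 (-0.34, adjusted p 0.143), against 13% of all genes. Without vehicle ZT0 replicate 1 the chains of type IV collagen passed, Col4a1 with an adjusted p of 0.0219 and Col4a2 with 0.0346. Each passed in only 1 of the 6 fits that leave out 1 liver, with adjusted p of up to 0.338 and 0.559. Only Col14a1 was lower without overlap of the groups, as were 15.8% of all genes. The exact permutation p of Col14a1 was 0.1, the smallest that 3 mice against 3 can give.

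In mice given Policaptil Gel Retard 2 of 8 genes had an adjusted p under 0.05, Col3a1 (log2 fold change -0.94 ± 0.24 SE, adjusted p 0.0454) and Col14a1 (-0.68 ± 0.10 SE, adjusted p 0.00856), against 5.36% of all genes. With p under 0.05 there were 6 of 8, these and Col4a1, Dcn, Lrat and Tgfb1, against 13.4% of all genes. The same 6 genes were lower without overlap of the groups, against 15.8% of all genes. The call of Col3a1 needed every treated liver but 1: it was kept only without Policaptil ZT0 replicate 1 (adjusted p 0.0332) and otherwise lost, with an adjusted p of up to 0.126. The call of Col14a1 held with any liver left out. With Policaptil ZT0 replicate 2 and Policaptil ZT12 replicate 3 both left out, Col3a1 had a log2 fold change of -0.60 with an adjusted p of 0.165, Col14a1 one of -0.56 with an adjusted p of 0.068, and none of the 8 passed. With the replicate number as a block, 1 of the 8 passed, and Col3a1 had an adjusted p of 0.0939.

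A passing test in treated mice and none in vehicle mice does not show that the time difference depended on treatment, so the interaction was tested itself. None of the 8 genes had an adjusted p under 0.05 by limma, nor did any other gene. With p under 0.05 there was 1, Col3a1, whose log2 fold change was lower by 0.68 with Policaptil Gel Retard (95% interval -1.32 to -0.04, adjusted p 0.726), against 6.63% of all genes. Without Policaptil ZT0 replicate 2 none of the 8 had p under 0.05. For Tgfb1 the difference was -0.43 (95% interval -0.89 to 0.02) and for Col14a1 -0.35 (95% interval -0.70 to 0.01).

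**Figure D3:**
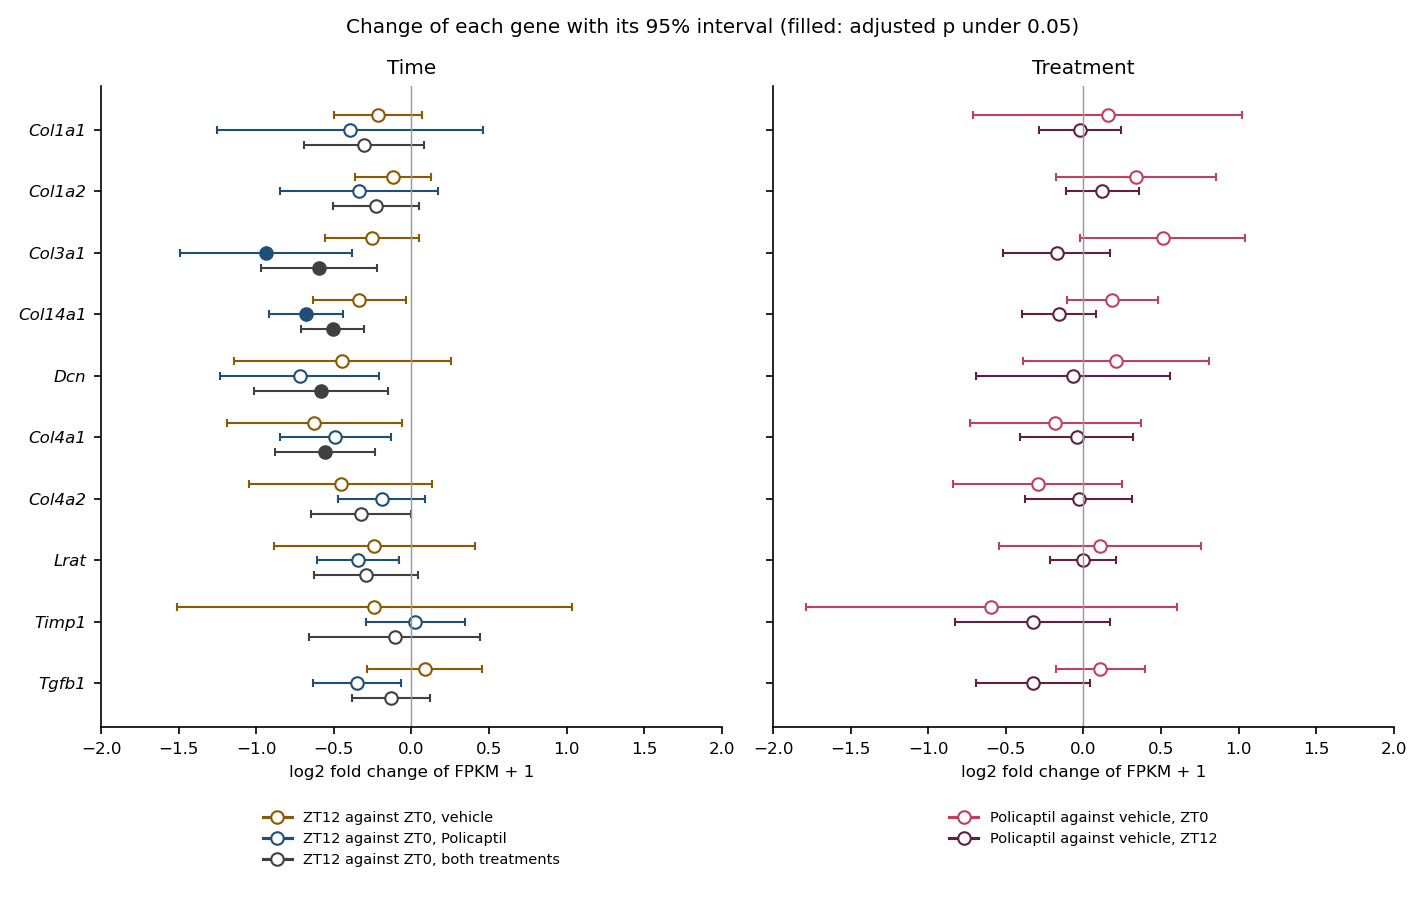
Log2 fold change of FPKM + 1 (x axis) for each of the 10 genes, with its 95% interval, for ZT12 against ZT0 on the left and Policaptil Gel Retard against vehicle on the right. Filled points have an adjusted p under 0.05: Col3a1, Col14a1, Dcn and Col4a1 over both treatments, and Col3a1 and Col14a1 in treated mice. No point on the right is filled, and Col1a1 and Timp1 come from the fit with no minimum FPKM.

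The question for Policaptil Gel Retard was whether it shifted these genes in livers on HFD. At ZT0 none of the 8 genes had p under 0.05, against 9.23% of all genes, and log2 fold changes ran from -0.29 for Col4a2 to 0.51 for Col3a1. The 95% interval of Col3a1 was -0.02 to 1.04 (adjusted p 0.559), and without Policaptil ZT0 replicate 2 its log2 fold change was 0.26. At ZT12 none of the 8 had p under 0.05, against 6.74% of all genes. The largest difference was that of Tgfb1, lower in treated mice by 0.33 on the log2 scale (95% interval -0.69 to 0.04, adjusted p 0.729), with overlapping groups. The version of Cyber-T found 1 of the 8 with p under 0.05 at each time and none with an adjusted p under 0.05.

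Over both times none of the 8 genes had an adjusted p under 0.05, as was true of all but 2 of the 9806 genes (0.0204%), and none had p under 0.05, against 10.1% of all genes. The log2 fold change was 0.23 for Col1a2 (95% interval -0.05 to 0.51) and 0.17 for Col3a1 (95% interval -0.20 to 0.54), and that of Col14a1 was 0.01 (95% interval -0.19 to 0.22). Timp1 was lower with Policaptil Gel Retard by 0.46 (95% interval -1.01 to 0.09) in the fit with no minimum FPKM, and by 0.21 without vehicle ZT0 replicate 1. With 3 mice a group these intervals leave room for changes of either sign, and a p that misses the threshold does not show that treated and vehicle livers were alike. The marker lists of other cells gave the same count here: no gene of the stellate, portal, smooth muscle, endothelial, macrophage, cholangiocyte or hepatocyte lists had an adjusted p under 0.05 over both times. Their medians were 0.13 for the stellate cell, 0.20 for the endothelial and -0.26 for the macrophage markers, and with p under 0.05 there were 4 of 11 endothelial markers higher, 3 of 8 hepatocyte markers higher and 1 lower, 2 of 17 stellate cell markers higher and 1 lower, and 1 of 8 macrophage markers lower, against 3.82% of all genes higher and 6.28% lower. At ZT0 alone 5 of 8 macrophage markers were lower with p under 0.05 (median -0.48), against 5.81% of all genes, and none had an adjusted p under 0.05. By the same p, 4 of 11 endothelial markers were higher there (median 0.14), against 3.42% of all genes. Of 17 stellate cell markers 2 were higher and 1 lower (median 0.25). None of these had an adjusted p under 0.05 either.

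Across the 12 livers the genes varied in pairs. Of 45 pairs, 36 had a Pearson r above 0 on log2(FPKM + 1), with a median of 0.38, and 8 had an adjusted p under 0.05 in permutation tests with 100000 resamples. Col4a1 and Col4a2 had r = 0.89 (Spearman rho 0.83, adjusted permutation p 0.00405 for r and 0.021 for rho). Their r was 0.93 among the 6 livers of ZT0 and 0.67 among the 6 of ZT12, and 0.70 without the 2 livers farthest from the median of Col4a1. Col3a1 and Col14a1 had r = 0.87 (rho 0.92), with 0.79 at ZT0, 0.68 at ZT12 and 0.87 without the 2 farthest livers. Col14a1 and Dcn had r = 0.85 (rho 0.85), Col3a1 and Dcn 0.75 (rho 0.82), and Dcn and Lrat 0.73 (rho 0.80), each also above 0.48 within each time. These permutations did not keep livers within their group. After the mean of each group was taken out, r was 0.64 for Col3a1 and Col14a1, 0.54 for Col3a1 and Dcn, 0.82 for Col14a1 and Dcn, 0.61 for Dcn and Lrat and 0.86 for Col4a1 and Col4a2.

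The chains of type I collagen gave the highest value, r = 0.91 between Col1a1 and Col1a2, but this rested on Policaptil ZT0 replicate 2. Without that liver r was 0.52, and rho over all livers was 0.61 with an adjusted permutation p of 0.147. Col1a1 and Col3a1 (r = 0.84) and Col1a2 and Col3a1 (r = 0.85) fell to 0.58 and 0.65 without it. The ratio of Col1a1 to Col1a2 ranged from 0.53 to 1.12 over the livers. Timp1 and Tgfb1 had no pair with an adjusted p under 0.05. Within a time, Lrat ran against the type IV chains at ZT0 only, with r = -0.87 with Col4a1 and -0.85 with Col4a2 over 6 livers. Vehicle ZT0 replicates 1 and 2 held the extremes there, with Lrat at 2.24 and 0.43 FPKM and Col4a1 at 1.99 and 4.45. At ZT12 these r were 0.57 and -0.0006, and over the 12 livers -0.03 and -0.29. After the mean of each group was taken out, they were -0.68 and -0.75. Col1a2 and Col4a2 also had r = -0.85, at ZT12. The values within a time or with group means taken out were not tested.

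**Figure D4:**
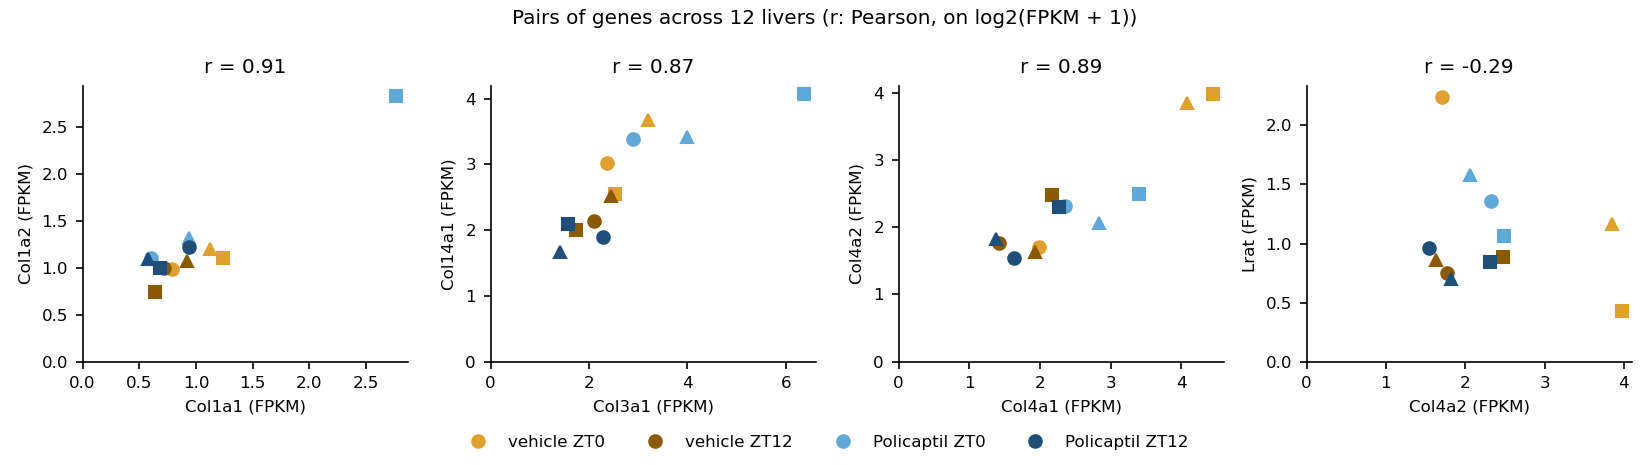
FPKM of pairs of genes in the 12 livers, coloured by group and shaped by replicate, with Pearson r on log2(FPKM + 1) above each panel. The point far from the others for Col1a1 and Col1a2 is Policaptil ZT0 replicate 2, whereas Col3a1 with Col14a1 and Col4a1 with Col4a2 spread along a line, and Col4a2 with Lrat does not.

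Genes outside the set were ranked by their likeness to the mean z-score of Col1a1, Col1a2 and Col3a1 over the 12 livers. The 8 most alike were Dpt, Snora33, Mir1931, Snora47, Mob3b, Zfyve26, the joint entry of Dancr and Snora26, and Nav2, with r of 0.86 to 0.89. Of these, the small RNAs Snora33, Mir1931 and Snora47 were listed at 0 in all livers but Policaptil ZT0 replicate 2. Without that liver r was 0.55 for Dpt, which encodes a fibril-binding protein of portal fibroblasts, 0.74 to 0.79 for Mob3b, Zfyve26 and Nav2, and -0.24 for the joint entry of Dancr and Snora26. The 4 genes most like Tgfb1 were Rab33b (r = 0.85), Ruvbl1 (0.83), Zfp871 (0.80) and Fgfr1op2 (0.78). These values describe likeness over 12 livers and were not tested.

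The rest of the matrix and its machinery was counted by the same rule, by which 13.8% of all genes were lower at ZT12 and 15.9% higher, or 11.2% and 12.1% without Policaptil ZT0 replicate 2 and Policaptil ZT12 replicate 3. Among 22 other collagens 5 were tested over both treatments, and 1 passed, Col27a1, a fibrillar collagen of cartilage, which rose from 10.2 ± 3.66 to 33.4 ± 2.17 FPKM (log2 fold change 1.68, adjusted p 5.47e-05). Of 15 tested genes of collagen processing, 5 were lower (33.3%) and 2 higher (13.3%, below the share of all genes), and the counts were 5 and 2 without both livers. The collagen chaperone Serpinh1 fell from 8.78 ± 1.505 to 3.70 ± 0.66 FPKM (log2 fold change -1.06, adjusted p 5.91e-05), the procollagen peptidase enhancer Pcolce from 5.28 ± 0.62 to 3.47 ± 0.82 FPKM (-0.51, adjusted p 0.00668), and the proline isomerase Ppib from 668 ± 47.5 to 471 ± 21.3 FPKM (-0.50, adjusted p 5.47e-05). Ctage5, which helps to export large cargo from the endoplasmic reticulum, was higher (0.41, adjusted p 0.000773). Here and below, levels are means ± SD over the 6 livers of a time.

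Of 15 tested proteoglycans and matrix glycoproteins, 4 were lower and 1 higher at ZT12, against 13.8% and 15.9% of all genes, and 3 and 1 without both livers, when Nid2 no longer passed (adjusted p 0.0836). The lower ones were Prelp (log2 fold change -0.78), the collagen-binding protein Sparc (-0.68), the decorin relative biglycan, Bgn (-0.52), and the basement membrane protein Nid2 (-0.45), with adjusted p of 0.000515, 0.000361, 0.00585 and 0.0266. Bgn went from 30.8 ± 4.01 to 21.2 ± 3.51 FPKM. Among 8 tested genes of matrix degradation and its inhibitors, 1 was lower, the protease Adamts1 (-0.53, adjusted p 0.000671), and 1 higher, the membrane metalloproteinase Mmp15 (0.31, adjusted p 0.046, and 0.118 without both livers).

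In the TGF-beta pathway 5 of 22 tested genes were lower (22.7%) and 3 higher at ZT12, against 13.8% and 15.9% of all genes, and 5 and 2 without both livers. The receptor Tgfbr2 rose from 2.31 ± 0.21 to 4.26 ± 0.47 FPKM (log2 fold change 0.67, adjusted p 3.76e-05), and the SMAD anchor Zfyve9 rose as well (0.58, adjusted p 0.000637). The signal transducer Smad3 (-0.48, adjusted p 0.00144) and the repressor Tgif1 (-0.60, adjusted p 0.00831) were lower. Of 22 tested genes of retinoid storage and response, 3 were lower (13.6%) and 7 higher, against 13.8% and 15.9% of all genes, with a median of 0.14, and without both livers 3 were lower and 3 higher. The retinyl ester hydrolase Ces1d rose from 194 ± 35.4 to 776 ± 124 FPKM (2.00, adjusted p 1.93e-06), and Lpl, which helps cells to take up retinyl esters from chylomicrons, was lower (-0.67, adjusted p 0.00098). The alcohol dehydrogenases Adh4 (-0.72, adjusted p 1.52e-05) and Adh1 (0.57, adjusted p 0.000998) differed in direction. Many genes of this list, such as Adh1, Adh4 and Ces1d, are chiefly hepatocyte genes in liver.

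Over both treatments, many markers of stellate and endothelial cells were lower at ZT12 as well. Of 17 tested stellate cell markers, 9 were lower and none higher, with a median log2 fold change of -0.36, against 13.8% lower among all genes. Without both livers that stand apart, which were highest or lowest for many of these markers, 5 were lower (29.4%, against 11.2% of all genes), with a median of -0.30. The lower ones included the PDGF receptor Pdgfrb (-0.58, adjusted p 0.000645), Rgs5 (-0.57, adjusted p 0.0011), and the collectins Colec10 (-0.51, adjusted p 0.00376) and Colec11 (-0.50, adjusted p 0.013). Their summed level was 143.7 to 186.1 FPKM at ZT0 and 115.3 to 164.4 FPKM at ZT12. Of 11 tested endothelial markers, 8, Eng of the TGF-beta list included, were lower and none higher, against 13.8% of all genes lower, with a median of -0.42, and 8 were lower without both livers (median -0.41). With all livers the largest changes were those of Clec4g (-0.76, adjusted p 0.00111), Oit3 (-0.68, adjusted p 0.000894), Cdh5 (-0.51, adjusted p 0.00324) and Fcgr2b (-0.51, adjusted p 0.0193). The endothelial sums, 54.2 to 78.6 FPKM at ZT0 and 29.2 to 49.6 FPKM at ZT12, did not overlap. Within vehicle mice none of the 17 stellate cell markers (median -0.26) and 2 of the 11 endothelial markers (median -0.44) were lower with an adjusted p under 0.05. Within Policaptil mice these were 9 (median -0.51) and 4 (median -0.36). The shares of all genes were 4.78% and 5.36%. Both livers that stand apart were in treated groups, and no marker of either list passed for the interaction of time and treatment. The part of stellate and endothelial cells in the lower levels of the collagen genes was not tested.

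Markers of other cell types were counted in the same way. None of 8 tested macrophage markers passed, with a median of -0.17 and sums of 42.5 to 84.9 FPKM at ZT0 and 36.5 to 97.1 FPKM at ZT12. None of 5 tested portal fibroblast and mesothelial markers passed (median -0.39), nor did any of the 4 blood or the 2 tested muscle genes. Of 5 tested smooth muscle markers, Myl9 was lower (-0.86, adjusted p 0.0255, and -0.64 with 0.049 without both livers), and Tpm2 (0.51, adjusted p 0.0203) and Mylk (0.33, adjusted p 0.0154) were higher. Sox9 was the 1 of 4 cholangiocyte markers that was lower (-0.51, adjusted p 0.0258, and 0.0532 without both livers). Of 8 hepatocyte markers Fgb was lower (-0.39, adjusted p 0.000997) and Hnf4a higher (0.31, adjusted p 0.00491), with a median of -0.04. Of the 2 tested fat genes, Cfd was higher (1.83, adjusted p 0.00857), while the defining fat markers Adipoq and Plin1 were at most 0.05 FPKM in any liver.

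**Figure D5:**
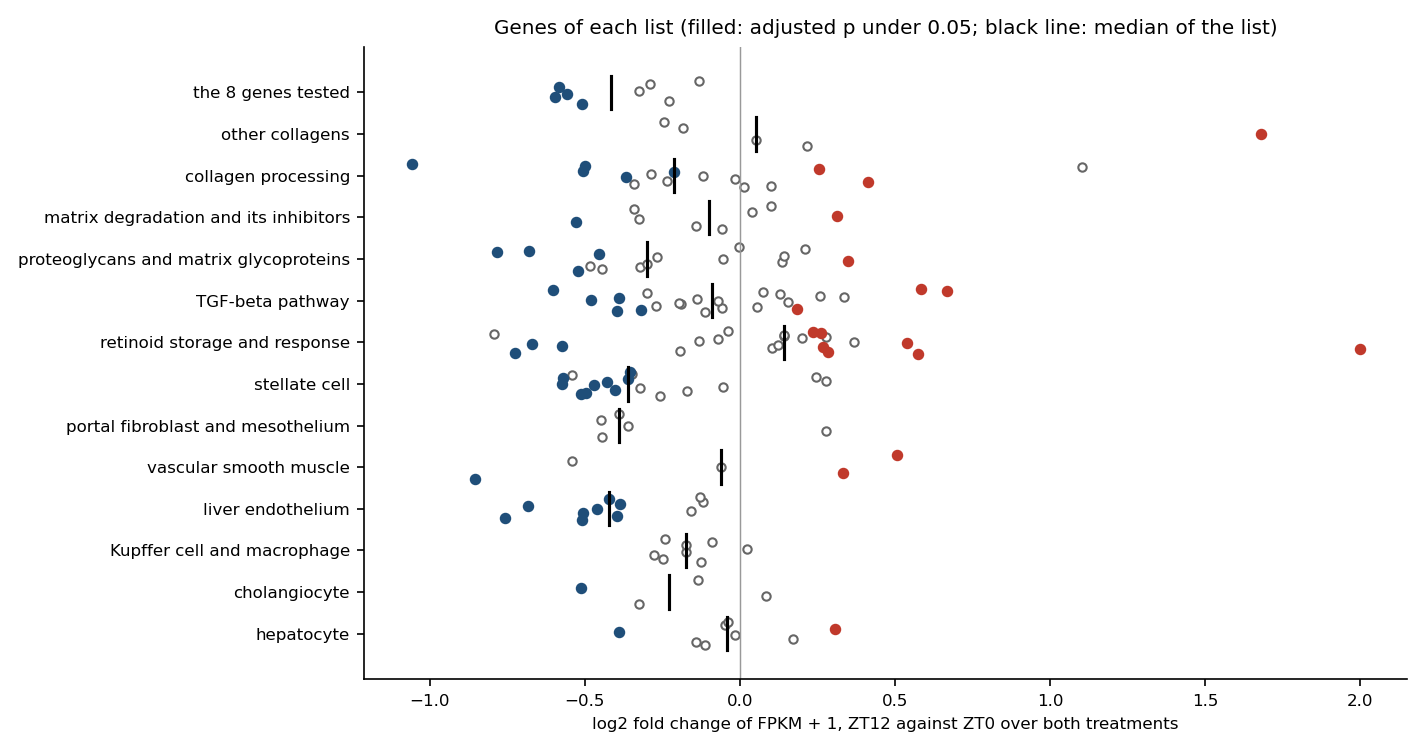
Log2 fold change at ZT12 against ZT0 over both treatments (x axis) for the 8 genes tested and for the genes of each list (rows), with filled points for an adjusted p under 0.05 (blue lower, red higher) and a black line at the median. The 8 genes (median -0.42), the stellate cell markers (-0.36) and the endothelial markers (-0.42) lie mostly to the left of 0, and the retinoid genes (0.14) on both sides.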

How the data were processed

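Whole-liver RNA of 12 mice was sequenced by the authors (single-end reads) and deposited as a table of FPKM values. The methods name ELAND, mm10 with UCSC junctions, uniquely aligned reads and stranded libraries, and call the unit RPKM, whereas the labels name TopHat, Cuffnorm and a kit that does not mark strand (TruSeq RNA v2), so the aligner and strandedness are not settled. Of 24138 lines, 289 repeated a symbol, and of these the line highest on average was used.

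The 9806 genes averaging 1 FPKM or more were tested on a log2(FPKM + 1) scale with limma 3.58.1 in R 4.3.3 (lmFit, eBayes with trend), two-sided, with Benjamini-Hochberg adjustment over all genes tested. Comparisons within a treatment or time used their 6 livers, and the others all 12. No replicate block was used in the main fits, since the sample titles link same-numbered livers by the number alone. Correlations of their deviations from the group means ran from -0.28 to 0.34, above 0.1 in 4 of 18 pairs. These values do not settle whether same-numbered livers shared a batch. Members of the set below 1 FPKM were fitted with no minimum. Tested on simulated data for ZT12 against ZT0 with vehicle over 9806 genes, the fit recovered 89.5% of 200 changed genes. In the livers, log2 fold changes of the 8 genes in that comparison ran from -0.63 to 0.08. Recovery of genes with differences of that size was not tested. Alternatives were a pseudocount of 0.1, minimum means of 0, 0.5 and 5 FPKM, limma without trend, median-ratio scaling, quantile normalization, 1 fit over 12 livers, the replicate block, a version of Cyber-T and each liver left out.

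The genes and lists were chosen with earlier results of these data known. Besides the set, up to 4 genes of each list with adjusted p under 0.05 are named for time over both treatments, by size of change. Lists with fewer passing genes were not filled up. Eng, which is also in the TGF-beta list, and the fat markers Adipoq and Plin1 are named outside this rule. Genes most like the collagens or Tgfb1 were ranked by Pearson r. Coordinates came from GENCODE vM21 and promoter windows from RefSeq (GRCm38.p6).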

Additional observations from a re-analysis of the deposited data

How the results depend on the processing

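The values below count, among the 8 genes tested, those with an adjusted p under 0.05 (changed) or with p under 0.05, or give a log2 fold change. For ZT12 against ZT0 over both treatments 4 genes were changed. This became 1 with a minimum mean of 5 FPKM (Dcn, the only gene then tested), 2 without Policaptil ZT0 replicate 2 and Policaptil ZT12 replicate 3 together (chosen after seeing the data) and 3 to 5 with each liver left out, and Dcn was lost with the replicate block (adjusted p 0.0616) and with no minimum FPKM (0.0776). The 5 with p under 0.05 became 1, 3 and 4 to 5 in turn. With vehicle the 0 changed became 1 with Cyber-T and 0 to 2 with a liver left out, and the 2 with p under 0.05 became 1 with no minimum FPKM, 0 with a minimum of 5 FPKM, 4 with Cyber-T and 0 to 3 with a liver left out. With Policaptil Gel Retard the 2 changed became 1 with no minimum FPKM, quantile normalization or the replicate block, 0 with a minimum of 5 FPKM or without both livers, 4 with Cyber-T and 1 to 2 with a liver left out. The 6 with p under 0.05 became 1 with a minimum of 5 FPKM and 4 to 7 with a liver left out. For treatment, the 0 with p under 0.05 became 1 at ZT0 with quantile normalization, the fit over 12 livers or Cyber-T, 1 at ZT12 with the fit over 12 livers or Cyber-T, and with a liver left out 0 to 2 at ZT0, 0 to 1 at ZT12 and 0 to 1 over both times. The interaction's 1 with p under 0.05 became 0 with no minimum FPKM, a minimum of 5 FPKM, the replicate block or without both livers, and 0 to 3 with a liver left out. The causes were not tested, apart from the fewer genes tested at 5 FPKM.

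Directions turned for Lrat, Timp1, Tgfb1 and Col1a1 in comparisons where they were not changed. With vehicle, leaving out a liver gave -0.54 to 0.055 for Lrat, -0.56 to 0.28 for Timp1 and -0.035 to 0.25 for Tgfb1. Timp1 ranged from -0.074 to 0.12 with Policaptil Gel Retard and from -0.23 to 0.14 over both treatments. Without both livers Col1a1 was at 0.034 with Policaptil Gel Retard. Of the other values 209 counts and 764 single values kept their side of the threshold and their direction, 23 lost the threshold and 8 gained it. The pairing by replicate number changed no other count of the 8 genes by over 1.5 times. Among all genes, those lower at ZT12 with an adjusted p under 0.05 by limma went from 469 to 141 with vehicle under this block. With Policaptil Gel Retard they went from 526 to 293, and over both treatments from 1353 to 1331. The minimum of 0.5 FPKM was also chosen after seeing the data. Depth in reads is unknown, so low genes such as Timp1 carry an error that only the spread between mice shows.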
